A study of Mus musculus with 6 samples.

Results

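The genes described here encode the Mediator complex and the nuclear pore complex. They were chosen by symbol among RefSeq GRCm38 protein-coding genes: Med or Nup followed by a number, with or without a final l, plus Ccnc, Cdk8, Cdk19, Ndc1, Tpr, Rae1, Ranbp2, Seh1l and Sec13. The rule found 59 genes of 21887, of which 33 belong to Mediator and 26 to the nuclear pore. It leaves out pore genes with other names, such as Nupl1 and Nupl2, and takes in paralogs such as Med12l and Nup210l.

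Acetylated H3K27, a histone mark of active promoters and enhancers, was mapped by CUT&RUN, in which an antibody guides a nuclease that releases the marked DNA for sequencing. The cells were labelled as primary hematopoietic stem cells, taken from mouse bone marrow. The wild-type group had 3 libraries and the knockout group, from Ppp2ca deficient mice, had 3. Ppp2ca encodes a catalytic subunit of the phosphatase PP2A. The sources used here do not give the allele, the deleted part of the gene, any Cre driver, or the strain and age of the mice. The series text gives 3 mice per genotype, and no label carries an animal number, so each library was taken as 1 mouse; the p-values measure only the spread between these libraries.

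Mediator carries signals from DNA-bound transcription factors to RNA polymerase II. Its head and middle modules contact the polymerase, its tail module contacts activators, and a detachable kinase module regulates the rest. The nuclear pore complex is the channel through the nuclear envelope: the Y complex and inner ring form its scaffold, transmembrane nucleoporins anchor it, and repeat-rich nucleoporins fill the channel and extend to either side. Genes of both complexes are used in nearly all cell types.

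The lists held 21917 to 29945 peaks in the wild-type libraries and 34016 to 50453 in the knockout libraries. The genome background solved from the lists, a proxy for depth, ranged from 0.498 to 0.584 fragments per 200 bp among wild-type libraries and from 0.465 to 0.827 among knockout libraries. A typical peak rested on few fragments, with a median at the summit of 5 in each wild-type library and 6, 6 and 9 in knockout replicates 1 to 3. An end of Ppp2ca carried a peak in all 6 libraries, which does not check the genotype because the deleted part is not known. Of 12 stem cell markers 3 were marked in each wild-type library and 4, 2 and 2 in the knockout libraries. Runx1 and Tal1 were marked in all 6 libraries, and those marked in none included Slamf1, Cd34, Hlf, Ly6a, Mecom and Gata2. Of 6 markers each, granulocyte and monocyte markers were marked 1 to 3 times per wild-type and 1 to 4 times per knockout library. The erythroid markers were marked 2 to 3 and 3 to 4 times, B cell markers 0 to 2 and 0 to 3 times, and T and NK cell markers 0 and 0 to 1 times. Among 6 markers of non-blood cells, Pecam1 was marked in all 6 libraries and the other 5 in none. The part of other cell types in the results was not tested.

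Strand and promoter sequence were matched by symbol in RefSeq GRCm38.p6 for 49 of the 59 genes. The following 150 bases end just before the annotated start and read in the direction of transcription. Sec13 and Nup93 are shown because their ends carried a peak in the 3 knockout libraries alone. Med16, Ranbp2 and Nup50 were marked in all 6, and Nup160 was marked at neither end in any library. Capitals mark matches on either strand to any of 8 motifs, each named for a factor or family known to bind such letters. They are the Sp and KLF box, spelled GGGCGG, the ETS core, spelled CCGGAAG, and the NF-Y box, spelled CCAAT. The NRF1 core was GCGCATGC, the YY1 core was AAGATGGC and the cyclic AMP response element (CRE) was TGACGTCA. The TATA box was TATAAA and the ZBTB33 core was TCTCGCGA. Matches may overlap: the NRF1 palindrome of Nup50 holds the core on both strands.
Sec13, chr6:113740682-113740831, minus strand: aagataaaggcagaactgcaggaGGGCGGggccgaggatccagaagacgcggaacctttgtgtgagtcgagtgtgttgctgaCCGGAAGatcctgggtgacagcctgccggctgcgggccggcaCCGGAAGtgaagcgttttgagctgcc
Nup93, chr8:94214414-94214563, plus strand: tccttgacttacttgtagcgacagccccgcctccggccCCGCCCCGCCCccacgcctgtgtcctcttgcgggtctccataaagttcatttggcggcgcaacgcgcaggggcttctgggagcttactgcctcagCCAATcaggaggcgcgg
Med16, chr10:79908939-79909088, minus strand: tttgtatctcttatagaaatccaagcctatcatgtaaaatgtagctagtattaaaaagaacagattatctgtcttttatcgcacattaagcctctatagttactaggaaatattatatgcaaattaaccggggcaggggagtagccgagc
Ranbp2, chr10:58446702-58446851, plus strand: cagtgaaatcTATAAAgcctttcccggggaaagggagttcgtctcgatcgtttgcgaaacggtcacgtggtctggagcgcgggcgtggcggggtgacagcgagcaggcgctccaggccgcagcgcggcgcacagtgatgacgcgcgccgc
Nup50, chr15:84923278-84923427, plus strand: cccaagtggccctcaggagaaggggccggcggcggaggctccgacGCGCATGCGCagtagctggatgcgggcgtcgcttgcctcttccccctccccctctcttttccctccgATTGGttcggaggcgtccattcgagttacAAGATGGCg
Nup160, chr2:90677065-90677214, plus strand: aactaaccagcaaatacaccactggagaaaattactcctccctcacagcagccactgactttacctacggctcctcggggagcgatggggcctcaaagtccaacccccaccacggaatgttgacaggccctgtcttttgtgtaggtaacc

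Within these stretches Sec13 held 1 Sp and KLF box and 2 ETS cores, and Nup93 held 2 overlapping Sp and KLF boxes and 1 NF-Y box. Nup50 held 2 overlapping NRF1 cores, 1 NF-Y box and 1 YY1 core. Ranbp2 held a TATA box 140 bases before its start, and Med16 and Nup160 held none of the 8 motifs. Med16, the Mediator gene with the best ranked peaks, had the stretch poorest in G and C of the 6, at 35.3%.

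Promoter composition was taken over the 300 bases from 250 before to 50 after a promoter start. This was the listed promoter start nearest the outer end of the gene. At some members it differed from that end, as at Med1 (98192906 and 98193313). Peaks at starts are measured below from the outer end. The median GC content was 61.0% for the 49 genes and 56.3% for all 17492 genes with such a sequence. The ratio of observed to expected CpG was above 0.6, as in a CpG island, in 43 of 49 (87.8%) against 48.4% of all genes. The Sp and KLF box was found in 69.4% against 46.3%, and the ETS core in 26.5% against 11.9%. The NF-Y box was found in 40.8% against 39.2%. The NRF1 core was found in 6 promoters, those of Med15, Med17, Med4, Nup107, Nup50 and Nup62, a share of 12.2% against 3.61%. The YY1 core was found in 10.2% against 3.21%, the CRE in 6.12% against 2.33%, the TATA box in 10.2% against 13.3% and the ZBTB33 core in 2.04% against 1.53%. These are letters in a window and say nothing of whether a factor was bound.

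The first comparison asked how many of the genes carried acetylation at a gene end in each genotype. A member counted as marked in a library if at least 1 bp of a peak fell within 1000 bp of its first or last base. The wild-type libraries marked 38, 42 and 40 of the 59 genes and the knockout libraries 53, 51 and 55. Every knockout library marked more members than every wild-type library. The means were 40 ± 2 and 53 ± 2 genes (SD, n = 3 each; two-sided exact permutation p = 0.1, the smallest value that 20 assignments of 3 and 3 libraries allow, so no comparison of libraries here can reach 0.05). As shares these are 67.8% and 89.8%, against 27.5% and 42.0% of all genes. The knockout lists were longer, and with every list held to its 21917 best peaks the mean difference was 10.7 members instead of 13.

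In both complexes more members were marked in the knockout libraries. Mediator had 21, 24 and 22 marked genes of 33 in the wild type and 29, 28 and 31 in the knockout (22.3 ± 1.53 and 29.3 ± 1.53, SD, n = 3; exact permutation p = 0.1). The nuclear pore had 17, 18 and 18 of 26 in the wild type and 24, 23 and 24 in the knockout (17.7 ± 0.577 and 23.7 ± 0.577, SD, n = 3; exact permutation p = 0.1). In each complex the groups did not overlap. Among the 12 Mediator genes with no neighbouring gene end within 2000 bp they did, at 6, 8 and 5 against 9, 8 and 11 (exact permutation p = 0.2), while the 13 such nuclear pore genes gave 7, 8 and 7 against 11, 10 and 11. The Mediator share minus the nuclear pore share was -1.75, 3.50 and -2.56 percentage points in the wild-type libraries and -4.43, -3.61 and 1.63 in the knockout libraries. These values overlapped, and the difference between genotypes, -1.86 points, had an exact permutation p of 0.5.

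**Figure D1:**
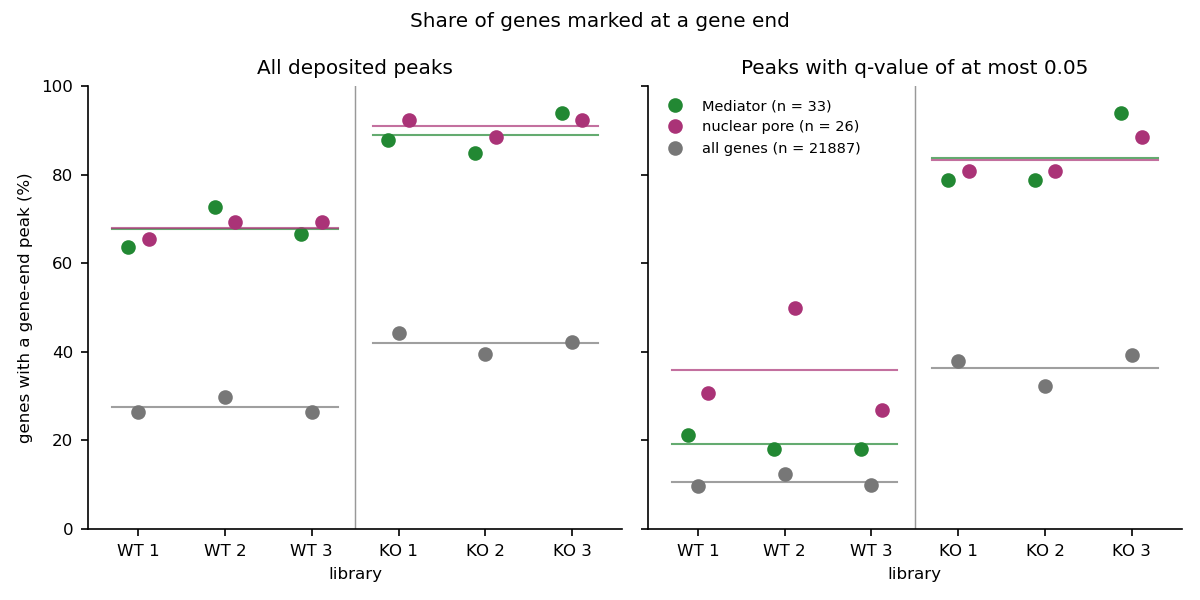
Share of Mediator genes (33), nuclear pore genes (26) and all genes (21887) with a peak within 1000 bp of a gene end, in percent, for each library (points) with the mean of each genotype (lines). With all peaks the 2 complexes sit together in each genotype; among peaks passing a q-value of 0.05 the nuclear pore share of wild-type replicate 2, stands above the other wild-type shares.

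Restricting the lists to peaks that pass a q-value of 0.05 separated the genotypes further. Mediator then had 7, 6 and 6 marked genes in the wild type and 26, 26 and 31 in the knockout, while the nuclear pore had 8, 13 and 7 against 21, 21 and 23. Over all genes the counts were 2150, 2708 and 2192 against 8296, 7047 and 8600. Knockout replicate 2, with the lowest background of the 6 libraries (0.465), marked 47 members, and the wild-type libraries marked 15, 19 and 13. A q-value depends on depth, whose part in these counts was not tested. At this setting the Mediator share lay below the nuclear pore share by 9.56, 31.8 and 8.74 points in the wild-type libraries. In the knockout libraries it was -1.98, -1.98 and 5.48 points. The difference between genotypes was then 17.2 points, opposite in sign to that with all peaks (exact permutation p = 0.1). It was 9.65 points without wild-type replicate 2, in which 13 nuclear pore genes passed. It was 7.94 points at the 49 annotated starts alone and 4.06 points over the members with no neighbouring gene end within 2000 bp, where the genotypes overlapped (exact permutation p = 0.8 in each).

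The plot of members by library shows which genes made up these counts. At least 1 library marked 56 of the 59 members, against 50.7% of all genes. All 6 libraries marked 30 members, 16 of Mediator and 14 of the nuclear pore. The background was 17.0% of all genes and 33.5% of the 11087 genes marked in any library, and the members' share of those marked was 53.6%. No library marked Med10, a middle module subunit, Med12l, a paralog of the kinase module subunit Med12, or Nup160, a Y complex subunit; 49.3% of all genes were in that class. More knockout than wild-type libraries marked 25 members (42.4%), against 28.7% of all genes. Among genes marked in any library these were 25 of 56 members and 6286 of 11087 genes, a smaller share for the members. Nup210 alone was marked in fewer knockout than wild-type libraries, by wild-type replicate 2 only, against 3.06% of all genes.

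**Figure D2:**
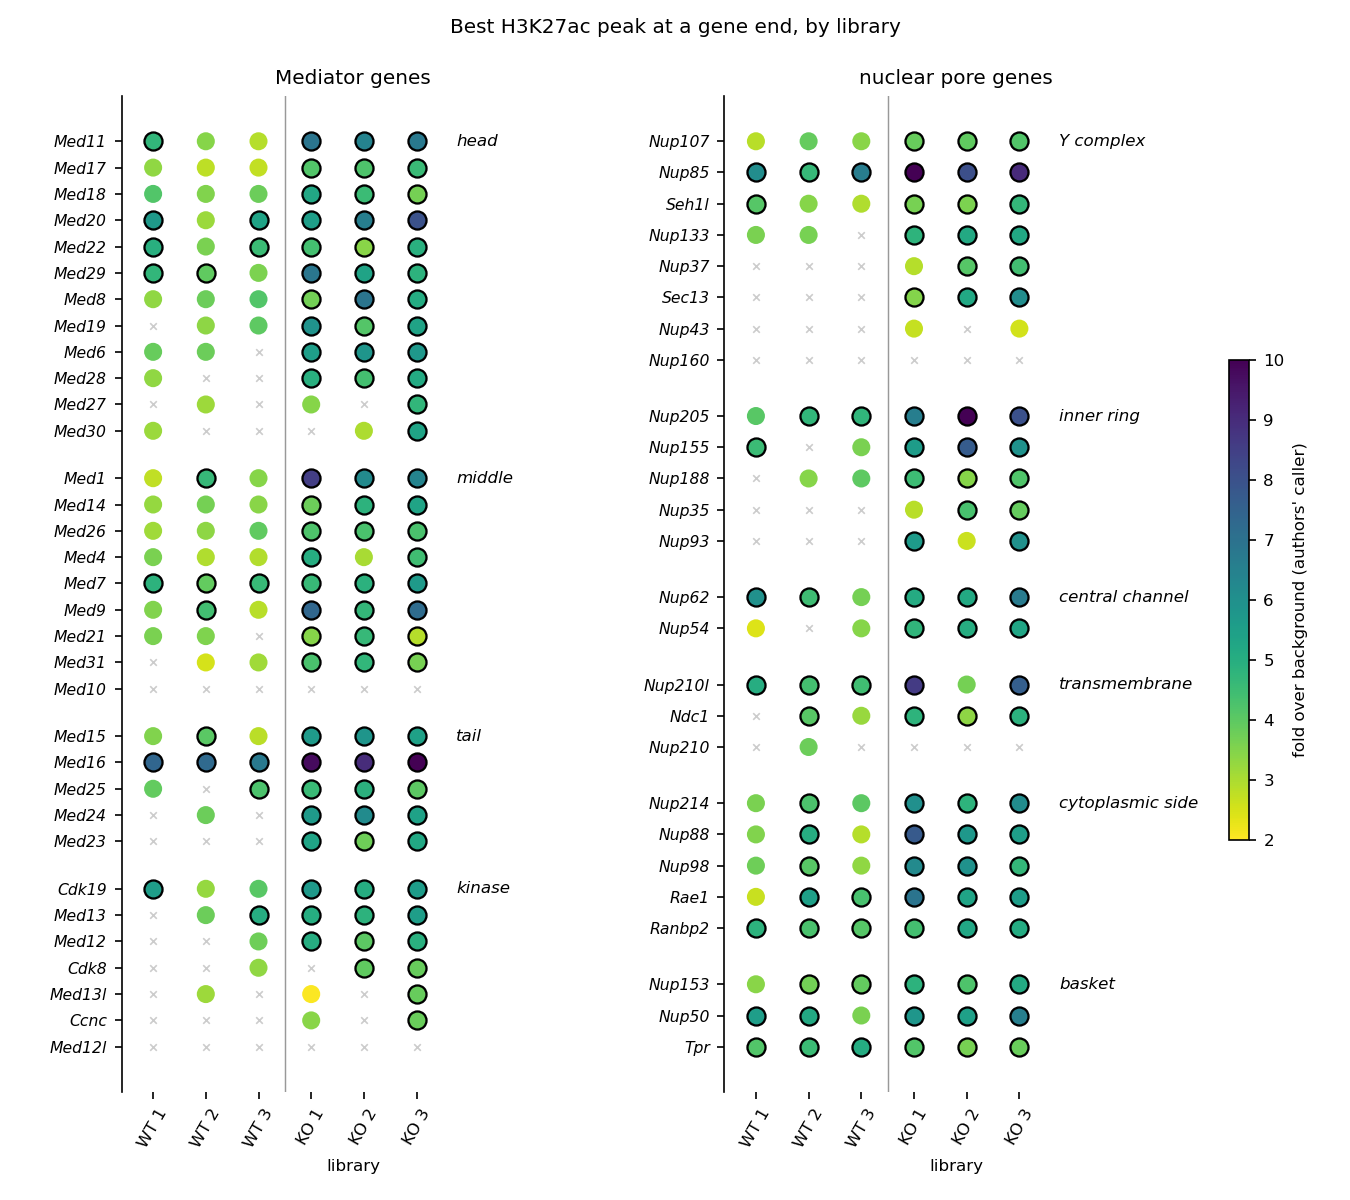
Best peak at a gene end of each of the 59 genes (rows, grouped by module) in each library (columns). Colour gives the authors' fold over background, with folds above 10 drawn as 10, a black ring marks a q-value of 0.05 or less, and a grey cross marks no peak. Rings are few in the wild type and fill most of the knockout columns, and all genes of the cytoplasmic side and basket have a peak in all 6 libraries.

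The modules differed in how many members were already marked in the wild type. The cytoplasmic side of the pore (5 genes) and its basket (3 genes) were fully marked in every library when all peaks were used. The inner ring had 2, 2 and 3 of 5 genes marked in the wild type and 5 in every knockout library, and the Mediator tail 3 of 5 in every wild-type library and 5 in every knockout library. The Y complex had 4, 4 and 3 of 8 genes against 7, 6 and 7, and the Mediator head 10, 10 and 8 of 12 against 11, 11 and 12. For these 4 modules the exact permutation p was 0.1 each.

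In the other modules the genotypes overlapped when all peaks were used. The middle module had 7, 8 and 7 marked genes of 9 in the wild type and 8 in each knockout library (exact permutation p = 0.4). The kinase module had 1, 3 and 4 against 5, 4 and 6 of 7 genes (exact permutation p = 0.2). Its members Cdk8, the kinase, and Ccnc, its cyclin, were among the least marked of the complex: Cdk8 in 1 wild-type and 2 knockout libraries, Ccnc in 2 knockout libraries. Central channel and transmembrane genes had 2, 1 and 2 of 2 and 1, 3 and 2 of 3 genes marked in the wild type, and 2 of each in every knockout library. At the q-value threshold of 0.05, 3 of these modules no longer overlapped (exact permutation p = 0.1 each): the middle module had 1, 3 and 1 genes against 8, 7 and 8, the kinase module 1, 0 and 1 against 3, 4 and 6, and the central channel 1, 1 and 0 against 2, 2 and 2. The cytoplasmic side had 1, 5 and 2 of 5 genes in the wild type at that threshold and 5 in every knockout library. The basket had 2, 3 and 2 of 3 genes against 3, 3 and 3, and both modules overlapped (exact permutation p = 0.4 each). Over the 10 modules these p-values were not adjusted, since none can pass 0.05.

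Genes marked by each of the 3 knockout libraries but by none of the wild type are called knockout-only. Among the members they were Med23, Nup35, Nup37, Nup93 and Sec13. They make 5 of 59 members, 8.47%, against a background of 4.10% of all genes. Among genes marked in any library the shares were 8.93% of members and 8.10% of all genes. No member was wild-type-only, a class that held 0.00914% of all genes. Folds given from here on are the authors' values at the peak summit, are not tested between lists, and describe the libraries only.

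Med23 (chromosome 10, 24869986 to 24913529), a tail subunit that links activators such as Elk1 to Mediator, had folds of 5.34, 3.75 and 5.22 on 10, 5 and 11 fragments in knockout replicates 1 to 3. Its nearest wild-type peaks lay 3213, 16698 and 9113 bp from a gene end. Sec13 (chromosome 6, 113728052 to 113740681, minus strand), shared by the Y complex and the COPII vesicle coat, had folds of 3.48, 5.19 and 6.10. Its nearest wild-type peaks lay 13345, 13022 and 13370 bp away. No wild-type peak lay within 2000 bp of an end of Med23, Sec13, Nup93, Nup37 or Nup35. The nearest to Nup93, Nup37 and Nup35 lay 16733, 22651 and 245671 bp away.

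Nup93 (chromosome 8, 94214564 to 94328100, plus strand), an organiser of the inner ring, had folds of 5.65, 2.63 and 5.98 on 12, 3 and 13 fragments, so its peak in knockout replicate 2 was weak. Nup35 (chromosome 2, 80638812 to 80660071), another inner ring subunit, had folds of 2.87, 4.32 and 3.88 on 4, 6 and 7 fragments. Nup37 (chromosome 10, 88146976 to 88178395, plus strand), a peripheral Y complex subunit, had folds of 2.88, 4.12 and 4.41. These peaks were not all at one place: in knockout replicate 1 the Nup37 peak lay at the far end of the gene, and the start of Nup37 is 7 bp from that of Parpbp. With peaks counted at annotated starts alone, 2 of 49 members were knockout-only, against 4.20% of all genes with a known start. With every list held to equal length 2 were, and the share of all genes was not counted there.

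Under the q-value threshold of 0.05, knockout-only members numbered 18, 13 of Mediator and 5 of the nuclear pore, against 12.4% of all genes. As a share of genes marked at that setting this was 33.3% of members and 29.0% of all genes. The 13 Mediator genes were Med12, Med14, Med17, Med18, Med19, Med21, Med23, Med24, Med26, Med28, Med31, Med6 and Med8. They include Med14, the backbone of the complex, and Med17, a head subunit. The 5 nuclear pore genes were Nup107, Nup133, Nup188, Nup54 and Sec13. Of all these, Med23 and Sec13 were also knockout-only with all peaks.

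Only 5 members (8.47%) passed that q-value in all 6 libraries, against 4.37% of all genes: Med16, Med7, Nup85, Ranbp2 and Tpr. Among genes marked at that setting these were 5 of 54 members (9.26%) and 956 of 9368 genes, so the members did not stand out. Nup210l alone passed the q-value in fewer knockout than wild-type libraries, against 0.164% of all genes.

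In each module, the best ranked of the members marked in all 6 libraries is described next; members marked in fewer libraries could not be chosen, so marking in both genotypes follows from the choice. Med16 (chromosome 10, 79894706 to 79908938, minus strand), a tail subunit, had wild-type folds of 7.38, 7.26 and 6.78 and knockout folds of 9.78, 9.01 and 10.0. Its rank percentile, where 0 is the best peak of a list, had a median of 0.388% over the 6 libraries. Its peak covered the start in all 6 libraries. Nup85 (chromosome 11, 115564432 to 115583924), of the Y complex, had folds of 6.11, 4.64 and 6.63 and then 10.9, 8.06 and 9.04, at a median rank percentile of 1.12%.

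Nup205 (chromosome 6, 35177616 to 35247599, plus strand), a large inner ring scaffold protein, had folds of 4.07, 4.74 and 4.76 in the wild type and 6.61, 10.1 and 8.01 in the knockout. Ranbp2 (chromosome 10, 58446852 to 58494155, plus strand), which forms the cytoplasmic filaments, had folds of 4.85, 4.29 and 4.11 and then 4.40, 5.24 and 5.10. For Nup205 the knockout folds lay above all wild-type folds, while for Ranbp2 the values overlapped. Nup50 (chromosome 15, 84923428 to 84942963, plus strand), a mobile basket protein, had folds of 5.56, 5.16 and 3.60 and then 5.81, 5.49 and 6.58. Nup62 (chromosome 7, 44816088 to 44831836, plus strand), a channel protein whose start lies 282 bp from that of Il4i1b, had folds of 5.98, 4.48 and 3.68 and then 5.11, 5.17 and 6.70.

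In the Mediator core, Med20 (chromosome 17, 47611585 to 47624251, plus strand), of the head, had folds of 5.71, 3.21 and 5.36 in the wild type and 5.53, 6.60 and 7.97 in the knockout, and its start lies 93 bp from that of Bysl. Med1 (chromosome 11, 98152154 to 98193313, minus strand), the subunit bound by nuclear receptors, had folds of 2.78, 4.64 and 3.45 and then 8.55, 6.20 and 6.38. All knockout folds of Med1 exceeded all its wild-type folds, as at Med16, Nup85 and Nup205. Those of Med20 overlapped, as at Ranbp2, Nup50, Nup62, Cdk19 and Nup210l. How often folds separate in this way over all genes was not counted. The best peaks of Med1 had no base in common over the 6 libraries, with wild-type summits at 698, -331 and 17 bp from its start. Over the 3713 genes marked in all libraries, the mean of the median folds per library was 4.06 in the wild type and 5.15 in the knockout. Cdk19 (chromosome 10, 40349287 to 40483818), the paralog of Cdk8, had folds of 5.56, 3.25 and 4.08 and then 5.69, 5.05 and 5.60. Nup210l (chromosome 3, 90101007 to 90212151), a paralog of the membrane nucleoporin Nup210, had folds of 5.00, 4.40 and 4.44 and then 8.59, 3.66 and 7.60. Its ends lie 105 bp from Tpm3 and 516 bp from Rps27, so its peaks cannot be assigned to it alone.

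The next comparison asked whether the peaks themselves were wider. Over the 30 members marked in all 6 libraries, the median width of the best gene-end peak was 425.5, 557.5 and 455 bp in the wild type and 1132.5, 1010 and 1243.5 bp in the knockout. Every knockout median was above every wild-type median (479 ± 69.3 and 1129 ± 117 bp, SD, n = 3; ratio 2.35; exact permutation p = 0.1). Over the 3713 genes marked in all libraries the ratio was 2.40, close to that of the members. The median number of fragments at the summit was 7, 8 and 6 against 25, 15 and 28.5, and its part in the width was not tested.

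The mean width was larger in the knockout in 30 of 30 members, with a median ratio of 2.21. In 20 members, 66.7%, every knockout peak was wider than every wild-type peak, against 60.4% of all genes marked in all libraries. Mediator gave 11 of these 20, of 16 tested, and the nuclear pore 9 of 14. The best peaks had no base in common over the 6 libraries at 13 of the 30 members, Nup98 and Med1 among them. Over the other 17 the medians were 428, 599 and 641 bp against 1219, 1059 and 1234 bp (ratio 2.11; exact permutation p = 0.1), and 13 of 17 had every knockout peak wider. The share of all genes under this condition was not counted, so 13 of 17 is not a result about the members. Over all 30, the largest ratios belonged to Nup98 (4.89), Nup153 (4.07), Nup50 (3.64) and Med1 (3.60).

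Nup98 (chromosome 7, 102119400 to 102210166, minus strand), a repeat-rich nucleoporin and a partner in leukemia fusions, had peaks of 395, 347 and 200 bp in the wild type and 1640, 1365 and 1604 bp in the knockout. The best peak of wild-type replicate 3 lay at the other end of the gene, 89747 bp from the start; its best peak at the start was 243 bp wide. None of the wild-type peaks reached the start of Nup98, while each of the knockout peaks covered it. The start lies 233 bp from that of Pgap2. Nup153 (chromosome 13, 46679902 to 46727849, minus strand), a basket protein, had peaks of 200, 388 and 846 bp and then 2107, 1904 and 1820 bp. The peaks of Nup50 were 251, 233 and 641 bp and then 1609, 1192 and 1299 bp, and those of Med1 367, 205 and 345 bp and then 1224, 743 and 1338 bp. In these 4 genes the genotypes did not overlap in width, which largely follows from choosing them by their width ratio. Of all genes marked in all libraries, 60.4% had every knockout peak wider than every wild-type peak.

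The smallest ratios belonged to Nup210l (1.18) and Tpr (1.25). For Nup210l the ratio and the folds mix places: the best peak of knockout replicate 2, 289 bp wide, lay at the low end of the gene and the others at the high end. Tpr (chromosome 1, 150392802 to 150449935, plus strand) is the coiled-coil protein of the basket, and its start lies 278 bp from that of Odr4. Its peaks were 379, 759 and 1387 bp in the wild type and 1043, 690 and 1425 bp in the knockout. The genotypes overlapped at both genes, which were chosen for their small ratios.

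**Figure D3:**
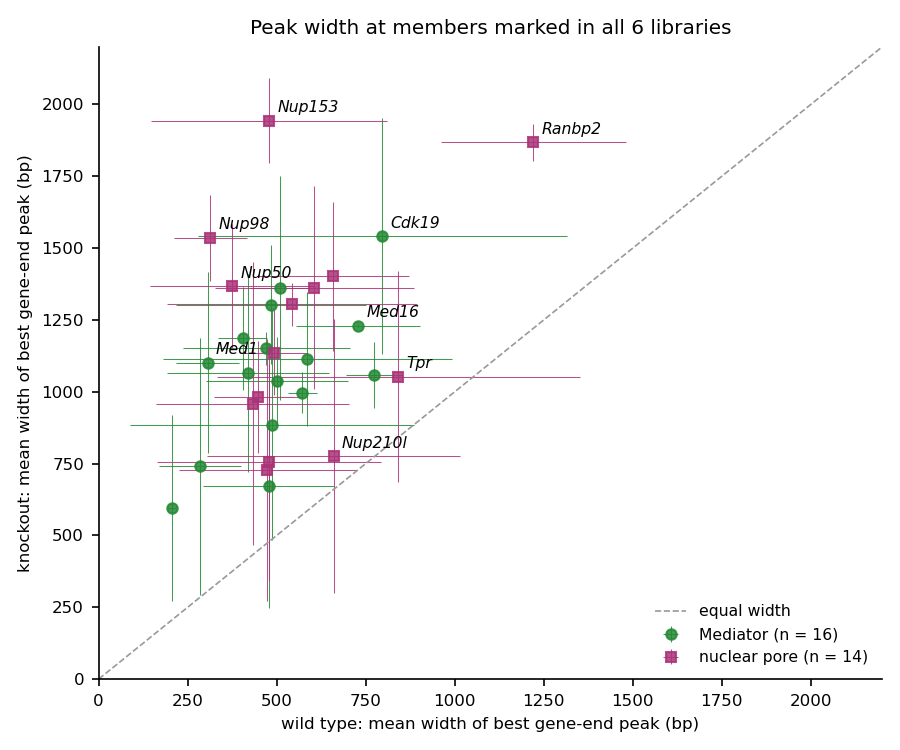
Mean width in bp of the best gene-end peak in the wild type (horizontal) and knockout (vertical) for the 30 members marked in all 6 libraries, with SD over 3 libraries as bars. All 30 points lie above the dashed line of equal width, Nup210l and Tpr nearest to it and Nup98 and Nup153 far above it.

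Peaks at the annotated start were compared next, with the outer end of each RefSeq gene on the side where transcription begins as the start. Of the 49 genes with a known start, 32, 36 and 35 were marked there in the wild type and 43, 42 and 45 in the knockout, against 1 to 2 and 2 to 5 at the other end. Of all 17492 genes with a known start, 26.6% and 40.8% were marked there, and 3.75% and 7.03% at the other end. The peak covered the start itself in 45.6 ± 5.12% of the marked wild-type starts and 86.1 ± 4.38% of the knockout ones (SD, n = 3; exact permutation p = 0.1). The median upstream edge lay at -235, -220 and -118 bp in the wild type and at -405, -268 and -277 bp in the knockout. The median downstream edge lay at 184.5, 338.5 and 529 bp against 651, 620.5 and 721 bp. Over all members neither edge overlapped between genotypes (exact permutation p = 0.1 each). For Mediator alone the upstream edge did, at -156.5, -196 and -99 bp against -344, -160 and -221 bp (exact permutation p = 0.2). The genes marked differ between libraries, so these medians are not over one set. Start coverage and edges were not computed over all genes, so they are not shown to be particular to the members. Over the 3713 genes marked in all libraries the best gene-end peak was also wider in the knockout, by a ratio of 2.40.

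**Figure D4:**
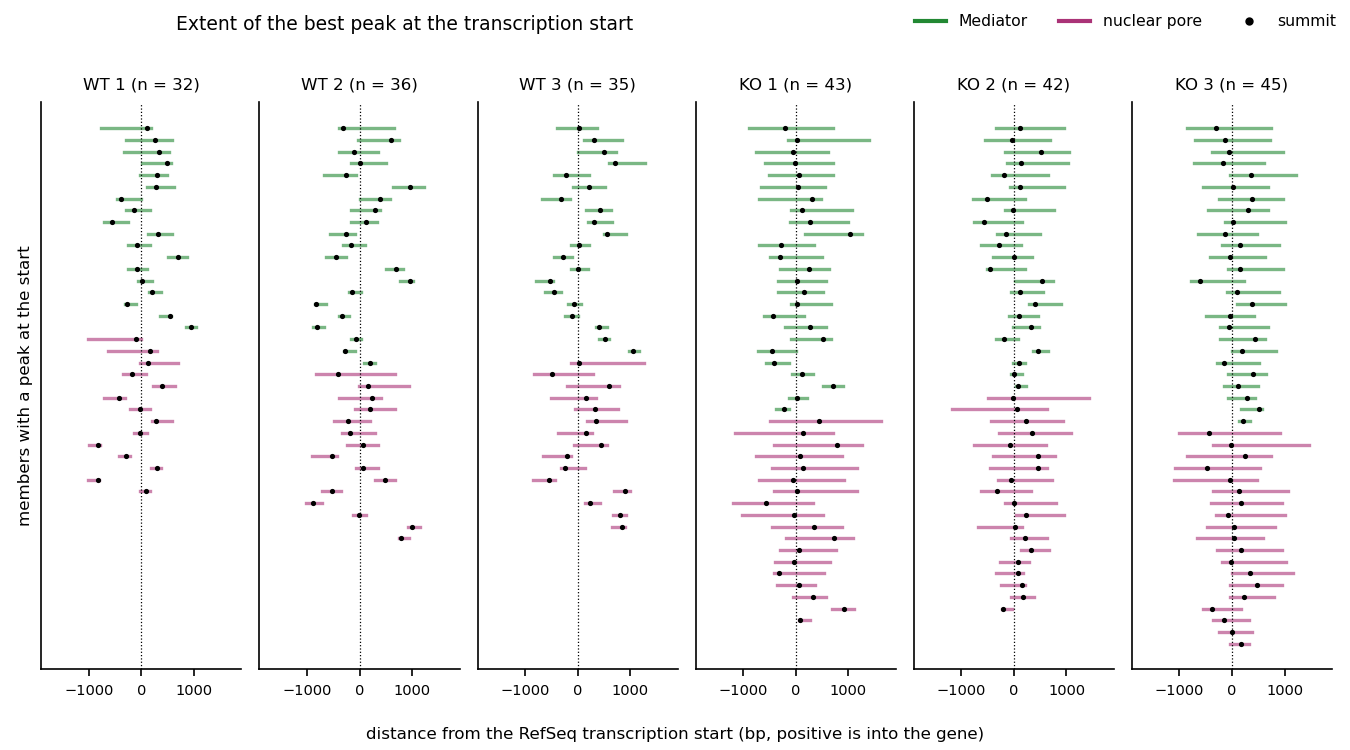
Extent of the best peak at the annotated start of each marked gene in each library, as distance from the start in bp, positive into the gene; each line is 1 gene, sorted by width within its complex, and the dot is the summit. The wild-type libraries hold 32 to 36 lines and the knockout libraries 42 to 45, and most knockout lines cross the start.

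Inside the genes, away from both windows, the members held 54, 64 and 41 peaks in the wild type and 124, 82 and 110 in the knockout (ratio 1.99; exact permutation p = 0.1). The knockout lists were longer, with a mean of 40033 peaks against 24643 in the wild type. Inner peaks were not counted over all genes, and the part of list length in this ratio was not tested. Merged over libraries the inner peaks of the members made 342 regions, of which 7 had a peak in all 6. Nup160 had 1 of them (chromosome 2, 90678745 to 90680319), beginning 1530 bp into the gene, with folds of 4.12, 3.30 and 3.49 in the wild type and 6.71, 3.98 and 5.19 in the knockout. The gene, unmarked at its ends, thus had a peak in every library not far inside its annotated start. Med12l, also unmarked at its ends, held 3 such regions, 94415, 114272 and 223405 bp from its start, the first of them within 1000 bp of an end of Gpr171. Cdk19 held 2.

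Cdk8 held the strongest of the 7 (chromosome 5, 146260874 to 146261467), 30079 bp inside the gene, with folds of 10.2, 11.6 and 8.43 in the wild type and 9.92, 9.90 and 8.33 in the knockout. Its widths were 513, 529 and 486 bp against 446, 542 and 502 bp. The genotypes overlapped in fold and in width at this region, while the end of Cdk8 was marked in 3 of 6 libraries.

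Other genes of the same pathways were counted from lists by the same rule. All 12 RNA polymerase II subunit genes were marked in every knockout library and 8, 8 and 4 in the wild type; Polr2b and Polr2e were knockout-only. Of 31 general transcription factor genes, 22.3 ± 0.577 were marked in the wild type and 28.7 ± 0.577 in the knockout (SD, n = 3), with Gtf2h2, Gtf2h4 and Ercc2 knockout-only, 3 of 31 against 4.10% of all genes. Of 31 nuclear transport genes the means were 22.7 ± 1.53 and 27.3 ± 1.53, and of 26 elongation factors and Mediator partners 19 ± 1 and 22.7 ± 0.577, with none knockout-only in either list. Of 14 other pore and lamina genes, 9 ± 1 were marked in the wild type and 12 ± 0 in the knockout, with Aaas, of the pore, knockout-only. Each list thus had a higher mean count in the knockout, and so had all genes.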

How the data were processed

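H3K27ac CUT&RUN of mouse bone marrow hematopoietic stem cells was analysed in 3 wild-type and 3 knockout libraries. The submitters' processing notes name BWA, Trimmomatic, MACS2, HOMER, ChIPseeker and deepTools and the build GRCm38/mm10; the sources used here give no versions or parameters. The authors deposited 1 narrowPeak list per library. In the deposited lists each peak has a fold over background (a ratio), a −log10 p-value, a −log10 q-value and a score. These are the authors' values, used for description and for ranking and filtering inside each list.

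Peaks were matched to RefSeq GRCm38.p6 gene ends (window 1000 bp, overlap 1 bp) with Python 3.11.15, pandas 2.3.3, numpy 2.4.6 and SciPy 1.17.1; the best peak has the lowest p-value. Fragments and background were solved from fold and p-value (tolerance 0.002) and cover counting error only. Libraries were compared with two-sided exact permutation tests, heights not at all. Named were the members of a single genotype, the best ranked member marked in all libraries per module, the 4 largest and 2 smallest width ratios, the members marked nowhere, and, after seeing values, Nup210, Cdk8, Ccnc, Nupl1, Nupl2, the inner regions and the members passing the q-value. Members and lists were chosen with earlier results of these data known. On simulated lists that held only planted peaks, 199 of 200 planted knockout-only genes were recovered among 21887. This checks the matching code and not how well such genes are detected in these libraries. No sequence of the 10 genes without a RefSeq entry in the promoter table was used.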

Additional observations from a re-analysis of the deposited data

How the results depend on the processing

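Of 125 results under alternatives, 114 kept their direction and stayed on the same side of the limits set. The difference between the Mediator and nuclear pore shares did not: it was -1.86 points with all peaks, 17.2 at a q-value threshold of 0.05, 2.53 with lists of equal length, and -3.75 to 0.0194 when 1 library was left out, turning without wild-type replicate 2. Knockout-only members numbered 5, but 18 at that q-value, 15 with a −log10 q of at least 5, 2 with equal lists, 2 at starts alone, 2 among members without a neighbouring gene end within 2000 bp (an alternative chosen after seeing the data), and 5 to 7 with 1 library left out. Members marked in all libraries numbered 30, but 5, 1 and 8 under the same q, −log10 q and neighbour settings, and 30 to 35 with 1 library left out. Of all genes, 4.10% were knockout-only with all peaks and 12.4% at the q-value of 0.05, and at starts it was 4.20% of those with a known start. Of all genes, 17.0% were marked in all libraries with all peaks and 4.37% at that q-value. For the other settings no share of all genes was counted, so those counts are not a result about the members. The cause of these changes was not tested. Leaving out 1 library gave a difference of 12 to 14 members (Mediator 6.17 to 7.83, nuclear pore 5.67 to 6.33) and a width difference of 592 to 709 bp. Same-number correlations between libraries were -0.0147, 0.0174 and 0.0318 over 3713 genes, and different-number ones lay between -0.0332 and 0.0134. Correlations this small cannot tell whether the replicate numbers pair the libraries. With the replicate block the differences of 13, 7 and 6 genes and 649 bp had an exact permutation p of 0.25, the smallest it allows, and the share difference of -1.86 one of 0.75. The typical peak rests on 5 to 9 fragments, so an absent peak shows no detection, not absence of the mark. Members whose best peaks have a base in common, also chosen after seeing the data, gave a width difference of 615 bp.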
